A study of Mus musculus with 23 samples.

Results

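The hypoxia-inducible factors (HIFs) and their closest regulators were followed as 10 genes in whole mouse hearts, out of 55487 genes in the deposited table. They are the alpha subunits Hif1a, Epas1 and Hif3a, their partner Arnt, the prolyl hydroxylases Egln1, Egln2 and Egln3, the ubiquitin ligase subunit Vhl, and the growth factor genes Vegfa and Vegfb. The genes were chosen by symbol with earlier results of both treatment comparisons known, so their treated-against-control values are given as a description, with no p-value, and the number past the threshold used across all genes is printed only beside the share of all genes past it. All 10 were found, and all 10 had a mean of at least 10 normalised read counts in both models, the minimum for the tests across all genes.

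The hearts came from 2 mouse models of HFpEF (heart failure in which the ejection fraction is preserved), each with its own controls in its own sequencing run. The db/db+Aldo group (n = 8, with 4 females) consisted of C57BL/6J mice of the genotype Leprdb/db, which are obese and diabetic because the leptin receptor does not work. At an age of 12 weeks they were given minipumps with d-aldosterone (0.3 µg/h) and were studied after 4 weeks. Its controls, called sham (n = 7, with 4 females), were wild-type C57BL/6J mice given pumps with vehicle, and normal chow was the food of both groups. The HFD+L-NAME group (n = 4, with 2 females) consisted of wild-type C57BL/6J mice that, starting at 10 weeks, ate food with 60 kcal% fat over 15 weeks and drank water with 0.5 g/L of L-NAME, which blocks nitric oxide synthases. Its controls, called chow (n = 4, with 2 females), were wild-type mice of the same age on another standard chow. Genotype and aldosterone cannot be told apart within the first pair of groups (the db/db model), nor diet and L-NAME within the second (the diet model). Model and run coincide, so the models were never compared library against library.

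When oxygen is plentiful, the prolyl hydroxylases modify the HIF alpha subunits, the Vhl ubiquitin ligase binds the modified form, and the subunits are degraded. When oxygen falls, the alpha subunits persist, pair with Arnt and bind hypoxia response elements in genes for glucose use, vessel growth and iron and matrix handling. Because much of this control acts on the proteins, messenger RNA levels of the components show their supply and not HIF activity. Egln3 and Vegfa are also HIF targets, and HIF activity itself was not measured here. In the heart, the vascular growth factors Vegfa and Vegfb come largely from cardiomyocytes and act on nearby endothelial cells.

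Promoter sequences are shown for Hif3a, which had the largest fitted difference in both models, for Egln3, which came next in the diet model, and for Vegfa, the HIF target with a lower level in db/db+Aldo. Each is 1 window around the gene's start from RefSeq on GRCm38.p6, written 5′ to 3′ on the gene's strand, at chr7:17062378-17062677 (minus strand), chr12:54203825-54204124 (minus strand) and chr17:46032328-46032627 (minus strand). Capitals mark the core of the hypoxia response element, searched as ACGTG and GCGTG on both strands.
Hif3a: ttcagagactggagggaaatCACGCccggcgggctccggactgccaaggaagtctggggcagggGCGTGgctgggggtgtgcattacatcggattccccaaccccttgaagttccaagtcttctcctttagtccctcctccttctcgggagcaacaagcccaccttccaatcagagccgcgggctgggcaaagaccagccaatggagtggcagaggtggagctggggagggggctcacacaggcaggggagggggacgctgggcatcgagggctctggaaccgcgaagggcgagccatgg
Egln3: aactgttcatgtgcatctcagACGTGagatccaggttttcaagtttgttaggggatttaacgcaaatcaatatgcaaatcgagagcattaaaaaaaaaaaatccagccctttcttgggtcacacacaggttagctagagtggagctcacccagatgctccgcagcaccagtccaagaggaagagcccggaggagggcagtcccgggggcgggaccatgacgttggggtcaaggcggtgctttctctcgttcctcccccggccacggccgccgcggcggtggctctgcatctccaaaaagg
Vegfa: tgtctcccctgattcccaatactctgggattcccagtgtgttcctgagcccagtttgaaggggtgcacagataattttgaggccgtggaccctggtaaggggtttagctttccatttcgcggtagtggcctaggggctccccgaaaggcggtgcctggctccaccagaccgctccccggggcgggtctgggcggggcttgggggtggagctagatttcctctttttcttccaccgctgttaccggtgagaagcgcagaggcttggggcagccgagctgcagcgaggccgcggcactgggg
The Hif3a window holds 2 matches and the Egln3 window 1, while the Vegfa window shown has 0. A window at a further listed start of Vegfa holds 2 matches that overlap no other match. Of the 10 genes, 9 had a window in the table, and 8 of these 9 had at least 1 match, among them Egln2 with 6 matches in 1 window and Hif1a with 3, each holding a pair that overlap in CACGTG. Counted by window, 9 of the 11 windows of these genes hold a match. The same letters are in 43.8% of all 32851 windows of this length (250 bases before the start and 50 after it). A match is therefore common and is given here only as a description. Sequence outside the windows was not searched, so 0 matches does not mean that a gene lacks the element.

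Library totals ran from 21258779 to 25692431 recovered read counts, and levels are counts divided by the library's size factor, given as mean ± SD. The share of counts from mitochondrial genes was 46.6% ± 4.13 (SD, n = 8, 41.2% to 52.8%) in db/db+Aldo and 38.9% ± 4.68 (SD, n = 7, 30.0% to 42.7%) in sham, and ran from 45.3% to 53.1% in HFD+L-NAME and from 47.0% to 50.2% in chow, so the groups of both models overlapped. Cardiomyocyte markers led every library, with a summed level of 831720 to 1572159 normalised counts for 11 genes, as a sample labelled whole heart should have. Their summed level had a mean of 1239920 in db/db+Aldo (1164057 to 1427836) and 1374856 in sham (1248394 to 1572159), with overlap. Of the 11 genes, 1 rose and 1 fell there. In HFD+L-NAME the sum was 831720 to 963943 against 932594 to 1064152 in chow, and 0 rose or fell. In db/db+Aldo, 6 of 10 fibroblast markers and 4 of 11 macrophage markers rose and 0 fell (9.96% of all tested genes rose and 9.21% fell), with summed fibroblast levels of 42947 to 49134 against 33800 to 40100 in sham and summed macrophage levels of 5884 to 8254 against 4672 to 6987. Of 8 smooth muscle and pericyte markers tested, 0 rose and 2 fell (summed level 20440 to 24738 against 26275 to 29784), and both tested adipocyte markers fell (2.12 to 50.5 against 23.6 to 212 over 7 markers). Under diet and L-NAME 2 of 11 endothelial markers rose (summed level 19254 to 23241 against 17082 to 19868), as did 2 of 11 macrophage markers (6341 to 9625 against 6082 to 8386) and 1 of 6 red blood cell markers (12962 to 31269 against 7015 to 18542), where 1.18% of all tested genes rose. Of 4 tested Schwann cell and neuron markers 1 fell there, and the summed level of that list did not overlap, at 122 to 180 against 189 to 328 in chow. Summed adipocyte levels overlapped, at 16.8 to 111 against 6.09 to 93.6. The part of these shifts in the values below was not tested, and in whole hearts fewer cells of a type and less RNA per cell cannot be told apart.

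Per kilobase of exon, the 10 genes kept nearly the same order of level in all 4 groups. Vegfb stood first, with 3734 ± 283 normalised counts per kb in sham and 3547 ± 510 in db/db+Aldo, followed by Egln1 at 2257 ± 191 and 2244 ± 148. Vegfa, Epas1 and Egln3 came next, with sham means of 1848, 1467 and 888 per kb. Egln2 (247 per kb in sham) and Hif1a (207) lay lower, then Arnt (119), Vhl (36.2) and, last in every group, Hif3a (3.50 per kb in sham and 11.4 in db/db+Aldo). Epas1 was therefore the most abundant alpha subunit per kb and Hif3a the least in every group. Neighbours whose libraries overlapped in sham were Egln1 with Vegfa, Vegfa with Epas1, and Egln2 with Hif1a. In db/db+Aldo the order of Egln2 and Hif1a was the other way round, as was that of Vegfa (1430 per kb) and Epas1 (1517). The libraries of both pairs overlapped there as well. In HFD+L-NAME, Egln3 (1389 per kb) stood above Epas1 (1295), with overlap, while in chow it stood below. Among the diet groups the first means were 5004 ± 577 per kb for Vegfb in chow and 4617 ± 290 in HFD+L-NAME, and the last were 6.87 ± 1.89 and 3.14 ± 0.742 for Hif3a. These runs were normalised separately, so levels of one model are not set against the other.

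**Figure D1:**
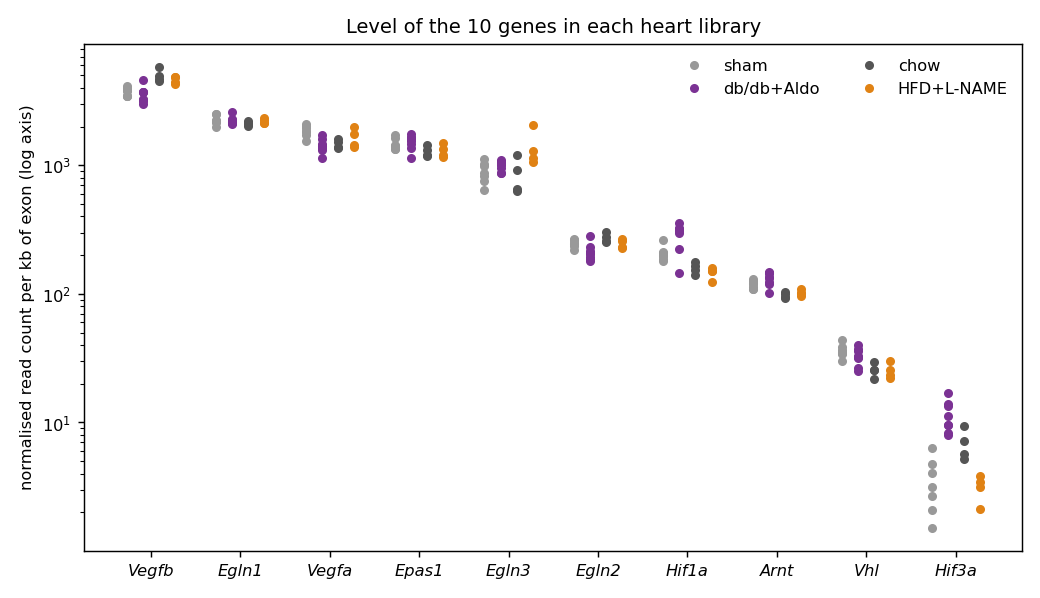
Normalised read counts per kb of exon (log axis) of the 10 genes in every heart library, coloured by group and ordered by their mean level. Vegfb is at the top and Hif3a at the bottom of every group. Within each model, the treated and control groups lie farthest apart for Hif3a. The runs were normalised separately and are not to be set against each other.

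Among the alpha subunits, Hif3a differed in both models and in opposite directions. Hif3a (ENSMUSG00000004328, chromosome 7, 17031507 to 17062427 on GRCm38, minus strand) encodes an alpha subunit whose short splice forms can restrain the other two, and gene counts do not separate its forms. In db/db+Aldo its lowest, median and highest libraries were 54.0, 69.9 and 115 normalised counts, against 10.2, 21.0 and 42.6 in sham. Every db/db+Aldo heart lay above every sham heart, and the mean was 3.26 times the sham mean (76.6 ± 21.3, n = 8, against 23.5 ± 11.2, n = 7). The fitted difference on the log2(normalised count + 1) scale was 1.79 ± 0.20 (SE). For the 2 sets of libraries whose names share a number series, a plain difference of log2 means was taken, with no sex term. It was 1.80 in the first set (2 treated and 4 sham hearts) and 1.68 in the second (4 treated and 3 sham hearts). The treated hearts of the first set were all male and its sham hearts of both sexes, and db/db+Aldo replicates 1 and 2 belong to neither set.

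HFD+L-NAME hearts had less Hif3a than chow hearts. The HFD+L-NAME libraries had 14.1, 21.2, 25.7 and 23.2 normalised counts and the chow libraries 47.7, 35.1, 38.2 and 63.4. All 4 treated hearts lay below all 4 chow hearts, and the fitted difference was −1.09 ± 0.23 (SE). These levels rest on few reads, 13 to 26 recovered counts per library in HFD+L-NAME and 37 to 65 in chow, against 46 to 123 in db/db+Aldo and 12 to 45 in sham. The authors' deposited tables gave log2 fold changes of 1.71 and −1.12 for the same comparisons, and the authors' deposited list of 27 symbols higher in the db/db and lower in the diet comparison holds Hif3a and none of the other 9 genes.

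Hif1a (ENSMUSG00000021109, chromosome 12, 73901375 to 73947530, plus strand), the oxygen-regulated subunit found in most cells, was higher in most db/db+Aldo hearts. Its lowest, median and highest db/db+Aldo libraries were 863, 1839 and 2083 normalised counts, against 1060, 1182 and 1543 in sham. Of 8 treated hearts, 6 lay above all sham hearts and 1, the male replicate 5, lay below all of them. The fitted difference was 0.43 ± 0.15 (SE), or 0.56 ± 0.09 without that library. Within the 2 name series the plain difference of log2 means, with no sex term, was 0.74 and 0.23. With total-count scaling the fitted difference was 0.23, beside a median of −0.22 over all genes with that scaling. Its diet groups overlapped, at 943, 893, 891 and 736 normalised counts in HFD+L-NAME against 1037, 833, 975 and 909 in chow (−0.12 ± 0.09, SE). An antisense gene, Gm15283, shares 330 exon bases with Hif1a and had 22.2 mean normalised counts in the db/db model. Whether strand was used in counting is not given in the sources used here, so reads of the shared bases cannot be assigned to a strand.

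Epas1 (ENSMUSG00000024140, chromosome 17, 86753700 to 86833410, plus strand), the alpha subunit prominent in endothelial cells, was at nearly the same level in treated and control hearts. It ranged from 6332 to 9800 normalised counts in db/db+Aldo and from 7435 to 9619 in sham, with a fitted difference of 0.04 ± 0.09 (SE), and the lowest library was again db/db+Aldo replicate 5. Its diet values were 7485, 8332, 6434 and 6699 in HFD+L-NAME against 7334, 6739, 6636 and 7990 in chow, a difference of 0.01 ± 0.08 (SE). Arnt (ENSMUSG00000015522, chromosome 3, 95434388 to 95497240, plus strand), the stable partner that every alpha subunit needs to bind DNA, differed by 0.15 ± 0.08 (SE) in the db/db model and 0.06 ± 0.06 (SE) in the diet model. Its libraries overlapped in both, at 807 to 1184 normalised counts in db/db+Aldo against 872 to 1054 in sham and 772 to 875 in HFD+L-NAME against 745 to 835 in chow. With total-count scaling, which moved the median over all genes to −0.22, the db/db difference of Arnt was −0.06 and that of Epas1 −0.16. Relative to the median of all genes they were 0.16 and 0.06 in the first scaling and 0.16 and 0.05 in the second, so the change of sign is that common shift.

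**Figure D2:**
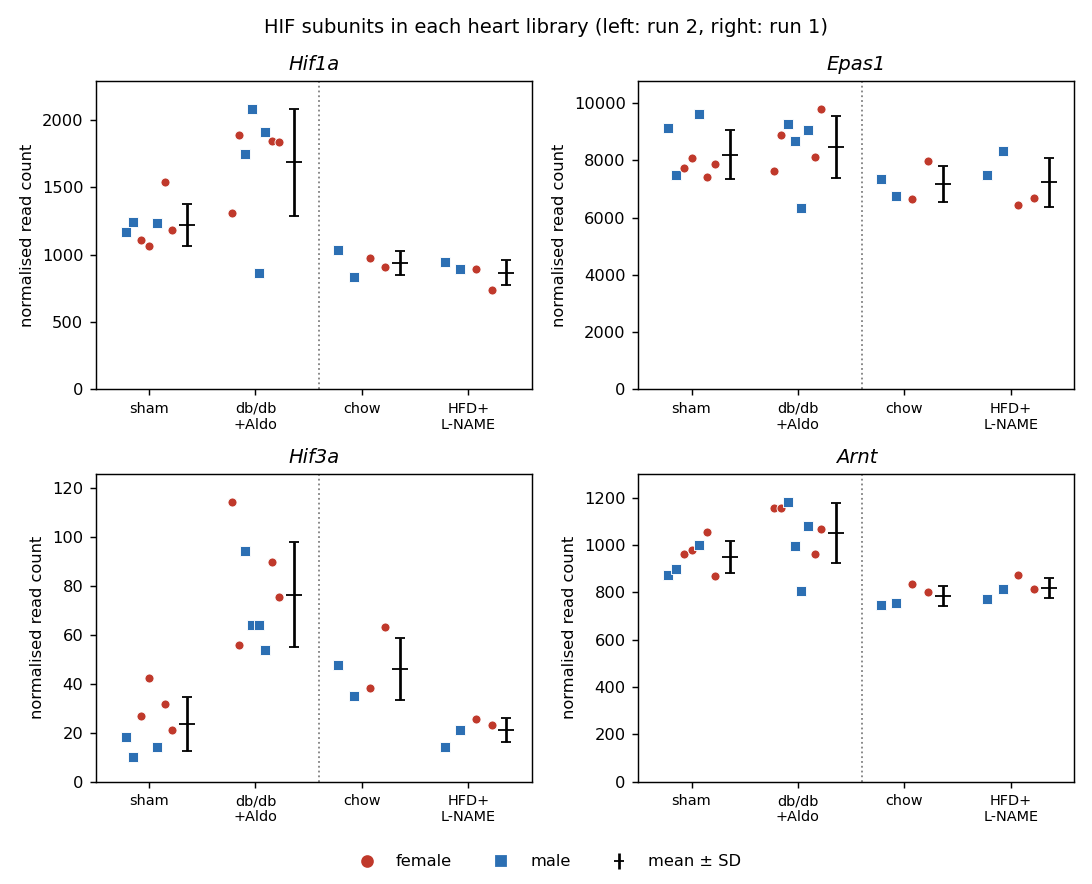
Normalised read counts of Hif1a, Epas1, Hif3a and Arnt in each library, with sham and db/db+Aldo (run 2) left of the dotted line and chow and HFD+L-NAME (run 1) right of it. Circles are female and squares male hearts, and the bars are mean ± SD. Hif3a lies higher in all 8 db/db+Aldo hearts than in sham and lower in all 4 HFD+L-NAME hearts than in chow, while Epas1 and Arnt overlap throughout.

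Of the 3 prolyl hydroxylases, Egln3 differed most in the diet model. Egln3 (ENSMUSG00000035105, chromosome 12, 54178981 to 54203860, minus strand) is the hydroxylase whose own transcription is a classical HIF response. Whether the 1 core match in its promoter window above has a part in that response was not tested. The HFD+L-NAME males had 5476 and 3452 normalised counts and the chow males 2444 and 3208, while the HFD+L-NAME females had 3034 and 2829 and the chow females 1742 and 1690. Within each sex both treated hearts lay above both chow hearts, although the pooled groups overlapped, because chow males reached into the range of treated females. The fitted difference with sex as a covariate was 0.70 ± 0.12 (SE), which the authors' deposited table also gave as 0.70 with an SE of 0.33. In the db/db model Egln3 differed by 0.18 ± 0.10 (SE), with libraries of 2336 to 2940 normalised counts against 1718 to 2961 in sham, and by −0.02 with total-count scaling, each 0.20 above the median of all genes.

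Egln1 and Egln2 showed smaller differences. Egln1 (ENSMUSG00000031987, chromosome 8, 124908587 to 124949324, minus strand), the main hydroxylase that sets HIF stability in normal oxygen, differed by −0.01 ± 0.06 (SE) in the db/db model and 0.08 ± 0.05 (SE) in the diet model. Its levels overlapped, at 7596 to 9274 normalised counts in db/db+Aldo against 7091 to 9051 in sham, and 7702 to 8456 in HFD+L-NAME against 7211 to 7900 in chow. Egln2 (ENSMUSG00000058709, chromosome 7, 27158658 to 27166802, minus strand), a further hydroxylase of the family, had a lowest, median and highest level of 503, 578 and 789 in db/db+Aldo against 616, 690 and 750 in sham. Of 8 treated hearts 6 lay below all sham hearts and 1, replicate 5, lay above all of them, for a fitted difference of −0.23 ± 0.08 (SE) with it and −0.28 ± 0.07 (SE) without it. Diet values of Egln2 were 636, 648, 727 and 746 in HFD+L-NAME against 842, 780, 706 and 719 in chow, lower in both treated males and higher in both treated females, with a fitted difference of −0.14 ± 0.08 (SE). Vhl (ENSMUSG00000033933, chromosome 6, 113623959 to 113631633, plus strand), which recognises hydroxylated alpha subunits, overlapped in both models, at 75.1 to 121 normalised counts in db/db+Aldo against 90.5 to 132 in sham (−0.14 ± 0.11, SE) and 66.3 to 90.9 in HFD+L-NAME against 65.6 to 88.4 in chow (−0.02 ± 0.15, SE).

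Of the growth factors, Vegfa was lower in db/db+Aldo and Vegfb overlapped in both models. Vegfa (ENSMUSG00000023951, chromosome 17, 46016993 to 46032369, minus strand), a classical HIF target that drives vessel growth, had a lowest, median and highest level of 4913, 6094 and 7319 normalised counts in db/db+Aldo against 6602, 7854 and 8910 in sham. Of 8 treated hearts 6 lay below all sham hearts, and the mean was 0.774 times the sham mean (6128 ± 742, n = 8, against 7917 ± 786, n = 7). The fitted difference was −0.38 ± 0.08 (SE), and −0.33 ± 0.07 without db/db+Aldo replicate 5. Within the 2 name series the plain difference of log2 means, with no sex term, was −0.29 and −0.46. Diet values of Vegfa pointed the other way, at 6137, 8498, 5973 and 7559 in HFD+L-NAME against 6876, 6453, 5882 and 5976 in chow, but the groups overlapped (0.15 ± 0.10, SE). Vegfb (ENSMUSG00000024962, chromosome 19, 6982473 to 6987651, minus strand), a ligand of Flt1 abundant in cardiac muscle, had libraries of 4775 to 7385 in db/db+Aldo against 5514 to 6637 in sham (−0.09 ± 0.08, SE). Its diet values were 6930 to 7858 in HFD+L-NAME against 7215 to 9330 in chow (−0.11 ± 0.07, SE).

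**Figure D3:**
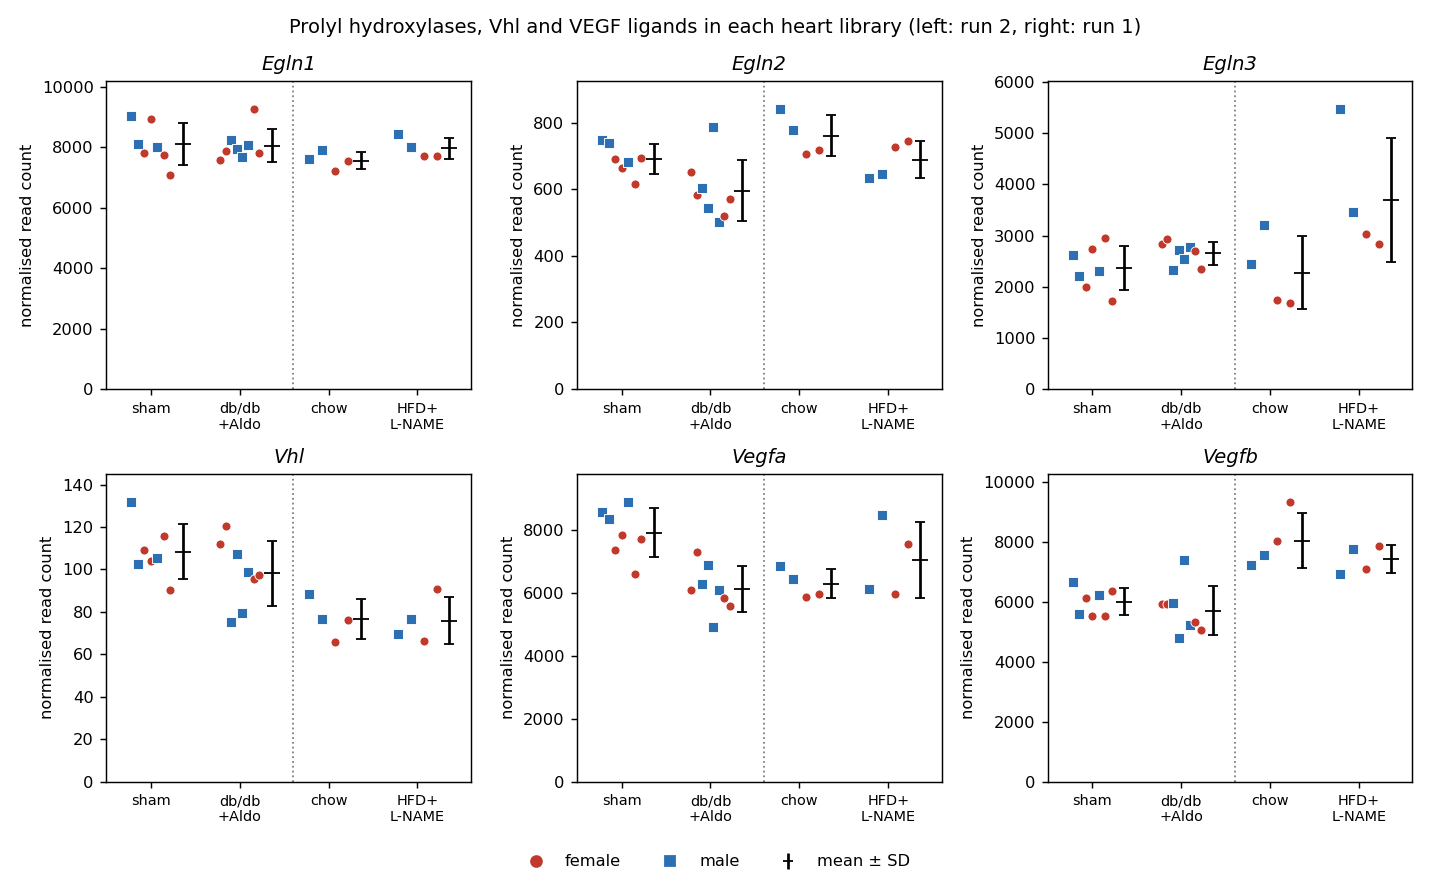
Normalised read counts of the 3 prolyl hydroxylases, Vhl, Vegfa and Vegfb in each library, laid out by group and run with circles for female hearts, squares for male hearts and bars for mean ± SD. Egln3 in HFD+L-NAME lies above chow within each sex, Vegfa lies lower in 6 of 8 db/db+Aldo hearts than in any sham heart, and the highest Vegfb and Egln2 values of the db/db+Aldo group belong to replicate 5.

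Across the 10 genes, the adjusted p threshold of 0.05 (limma, Benjamini-Hochberg over all genes) was passed by 3 in the db/db model, Hif3a and Hif1a higher and Vegfa lower, where 19.2% of all tested genes passed it, 9.96% higher and 9.21% lower. Against chow 2 passed, Egln3 higher and Hif3a lower, against 2.18% of all tested genes, 1.18% higher and 1% lower. Over the settings tried, Hif3a passed there in 9 of 19 and Egln3 in 17 of 20. Hif3a did not pass with limma voom, without the sex covariate or with replicate number as a block. Its call was also lost on leaving out any 1 of chow replicates 1, 2 and 4 and of the HFD+L-NAME hearts 1, 3 and 4. Egln3 did not pass without the sex covariate or without chow replicate 1 or 3. Groups did not overlap for Hif3a alone in each model, against 4.08% of tested genes in the db/db model and 8.2% in the diet model. Since these contrasts were in view when the genes were chosen, nothing is read from these counts. With total-count scaling 6 of the 10 passed in the db/db model, with Egln1, Egln2, Vhl and Vegfb lower in addition and Hif1a no longer among them, where 37.6% of all tested genes passed and 33.7% were lower. Leaving out 1 library at a time, 2 to 5 of the 10 passed there, and 2 in 12 of the 15 fits. The 5 came without db/db+Aldo replicate 5, where 3600 of 14117 tested genes passed, beside 2056 to 3600 over the 15 fits. Under diet and L-NAME 0 to 2 passed, beside 149 to 307 of all genes over such fits. The 0 came without chow replicate 1, where 150 of 13793 tested genes passed. Over the fits that leave out 1 library, the difference of Hif1a in db/db+Aldo ran from 0.38 to 0.56 and that of Vegfa from −0.43 to −0.33. In HFD+L-NAME that of Hif3a ran from −1.25 to −0.96 and that of Egln3 from 0.58 to 0.85. Hif1a did not pass in the 12 fits where 2 passed, nor with name series as covariate. It passed in 11 of 28 settings of the db/db model, against 28 of 28 for Hif3a and Vegfa. Earlier work on these data had put 5 libraries in doubt (db/db+Aldo hearts 1 and 5, sham hearts 1 and 7 and the HFD+L-NAME heart 3). Without them 4 of the 10 passed in the db/db model, beside 3230 of 14110 tested genes. In the diet model 1 passed, beside 208 of 13800.

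**Figure D4:**
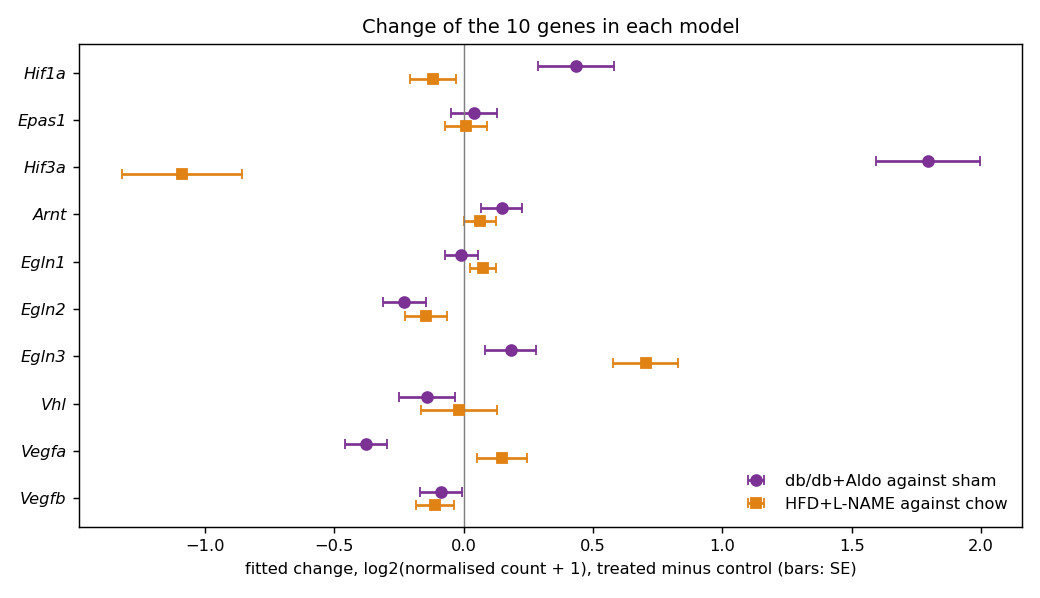
Fitted change of each gene on the log2(normalised count + 1) scale, treated minus control, in db/db+Aldo against sham (circles) and HFD+L-NAME against chow (squares), with bars of 1 SE. Hif3a is at 1.79 in one model and −1.09 in the other, Egln3 reaches 0.70 in the diet model and Vegfa −0.38 in the db/db model, while Epas1 and Egln1 stay within 0.08 of 0 in both.

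Sex was not used in choosing the genes, so differences between females and males were tested. None of the 10 genes passed the adjusted p threshold in limma in any sex contrast of either model, and 0 passed with limma voom. In the db/db model 0 of 10 reached an unadjusted p under 0.05 in db/db+Aldo, 1 in sham and 1 for the sex by treatment term, where 2.63%, 3.7% and 2.7% of all tested genes did so and 0.0567%, 0.0637% and 0% passed after adjustment. For that last term 381 of 14121 genes had an unadjusted p under 0.05. For the diet groups 3 of 10 did so in HFD+L-NAME, 2 in chow and 2 for the sex by treatment term, where 11.4%, 7.59% and 6.64% of all tested genes did so and 0.254%, 0.109% and 0.00725% passed after adjustment.

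Hif3a had the lowest p of the 10 in sham, where females were higher than males. Sham males had 18.0, 10.2 and 13.9 normalised counts and sham females 27.0, 42.6, 31.9 and 21.0, so all 4 females lay above all 3 males. The difference was 1.06 ± 0.27 (SE) on the log2 scale, with an unadjusted p of 0.00103 and an adjusted p of 0.429 in limma. In db/db+Aldo the sexes overlapped, at 55.9 to 115 in females and 54.0 to 94.2 in males (0.26 ± 0.25, adjusted p = 1.00 in limma), and the test of the change in the sex difference gave −0.80 ± 0.37 (adjusted p = 1.00 in limma). Over both groups of the model females were higher by 0.63 ± 0.20 (adjusted p = 0.984 in limma, 0.0921% of all tested genes passing).

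Egln3 was lower in females in both groups of the diet model. The difference was −0.71 ± 0.18 (SE, adjusted p = 0.255 in limma) in chow and −0.57 ± 0.18 (SE, adjusted p = 0.240 in limma) in HFD+L-NAME, with both females below both males in each group. Over both groups it was −0.64 ± 0.12 (SE), with an unadjusted p of 0.000252 and an adjusted p of 0.0600 in limma, where 0.362% of all tested genes passed. This contrast over both groups was added after the values were seen, and the test of the change in the sex difference gave 0.14 ± 0.25 (adjusted p = 0.942 in limma). The value in HFD+L-NAME rested on few hearts, at −0.24 without its male replicate 1 and −0.90 (adjusted p = 0.0211 in limma) without its male replicate 2, and the value in chow passed with an adjusted p of 0.0250 in limma without HFD+L-NAME replicate 1 and also passed without replicate 2 of that group, hearts that enter the chow value only through the shared spread. In the db/db model the female-minus-male difference of Egln3 was 0.01 ± 0.10 (SE, adjusted p = 0.999 in limma). Epas1 in HFD+L-NAME differed by −0.27 ± 0.10 (adjusted p = 0.332 in limma). For the sex by treatment term of the diet model, Egln2 had the lowest p of the 10 (0.38 ± 0.13, adjusted p = 0.578 in limma). In the authors' deposited table of females against males in db/db+Aldo, the log2 fold change of Hif1a was −0.16, against 0.12 ± 0.21 (SE) in the present fit and −0.17 in the fit without db/db+Aldo replicate 5.

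After the mean of each group and sex was taken out of the log2 values, some pairs among the 10 genes moved together across the 15 libraries of the db/db model. Hif1a and Egln2 had the strongest relation (Pearson r −0.90, Spearman rho −0.78), while Egln2 with Vegfb (r 0.81, rho 0.78) and Egln3 with Vhl (r 0.65, rho 0.68) varied in the same direction. These are descriptions across libraries that share depth and composition, and replicate 5 is the lowest db/db+Aldo library for Hif1a and the highest for Egln2 and Vegfb. Outside the 10, the genes most like Hif3a in that model were Akap17b (r 0.87), Alg12 (r 0.83), Apbb3 (r 0.83), Ext1 (r 0.81) and Hectd2os (r 0.81), of 10940 genes searched over 15 libraries. Over the diet libraries Rnf103, Abcb10, Grpel1, Sema3f and Rbpms had r from 0.993 to 0.998 with Hif3a over 8 libraries, where cells of 2 hearts give equal and opposite residuals and only 4 of the 8 values are free.

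The gene lists from here on were chosen with earlier results of these data known, so their counts and p-values are given as a description. The partners and further regulators of the HIF pathway were measured as a list of 17 genes, and the transcriptional co-regulators Cited2 and Cited4 changed in opposite directions in db/db+Aldo. Of 16 tested, 3 rose and 2 fell (median change 0.05, against −0.02 over all genes), where 9.96% of all tested genes rose and 9.21% fell. Cited2, which competes with HIF for the coactivators Crebbp and Ep300, rose from 772 ± 43.2 to 1260 ± 303 normalised counts (0.68 ± 0.12, adjusted p = 0.000607 in limma). Cited4, a relative expressed in heart, fell from 730 ± 136 to 446 ± 73.8 (−0.71 ± 0.12, adjusted p = 0.000440 in limma). Of the Siah ubiquitin ligases, which act on prolyl hydroxylases, Siah1a rose by 0.40 ± 0.09 (adjusted p = 0.00501 in limma) and Siah2 fell by 0.41 ± 0.12 (adjusted p = 0.0199 in limma). The call of Siah1a ended with total-count scaling (0.19) and without size factors (0.14), although it stayed 0.41 above the median of all genes in each, and that of Siah2 ended without db/db+Aldo replicate 8 (−0.36). Eloc, a subunit of the Vhl ligase, rose by 0.29 ± 0.10 (adjusted p = 0.0489 in limma), a call that held in 12 of 28 settings and was lost on leaving out any 1 of sham replicates 1, 3, 5, 6 and 7 and of the db/db+Aldo hearts 4, 5, 6, 7 and 8. Against chow 0 of 15 passed the threshold in limma and 0 in limma voom, and Cited2 had the lowest p with 790 ± 160 normalised counts against 1159 ± 121 in chow (−0.57 ± 0.14, adjusted p = 0.0552 in limma). Cited2 passed there in 6 of 20 settings, among them total-count scaling and the fits without HFD+L-NAME replicate 1 or 2, with adjusted p-values of 0.0208 to 0.167 in limma over all 20.

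Among the other VEGF family ligands and receptors, Pgf was the gene that rose in db/db+Aldo. Of 8 tested, 1 rose and 1 fell (median −0.09), beside 9.96% and 9.21% of all tested genes. Pgf, a ligand of Flt1 like Vegfb, rose from 53.3 ± 10.6 to 102 ± 16.8 normalised counts (0.92 ± 0.14, adjusted p = 0.000114 in limma), and all 8 treated hearts, at 80.5 to 136, lay above the sham range of 31.5 to 62.2. Nrp1, a co-receptor for VEGF, fell by 0.35 ± 0.11 (adjusted p = 0.0271 in limma), a call that ended on leaving out sham replicate 5 (−0.30) or the db/db+Aldo heart 8 (−0.33). Among the HFD+L-NAME hearts 0 of 8 passed in limma (0 in limma voom), and Kdr, the main endothelial receptor for Vegfa, had the lowest p at 3211 ± 471 against 2725 ± 393 in chow (0.24 ± 0.06, adjusted p = 0.0561 in limma, and 0.0374 without HFD+L-NAME replicate 2).

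Of 16 tested HIF target genes of glucose use, 2 rose and 1 fell in db/db+Aldo (median −0.04), a share near the 19.2% of all tested genes called there. Hk2, a hexokinase, fell from 4883 ± 305 to 3789 ± 335 normalised counts (−0.37 ± 0.07, adjusted p = 0.000536 in limma), with no overlap between groups. Ldha, lactate dehydrogenase A, rose by 0.24 ± 0.06 (adjusted p = 0.0109 in limma) and Tpi1, a glycolytic isomerase, by 0.21 ± 0.07 (adjusted p = 0.0490 in limma), and relative to the median of all genes they were 0.25 and 0.22 with and without size factors, although without them the values themselves were −0.01 and −0.05. The call of Ldha ended with total-count scaling, without size factors and with name series as covariate. The call of Tpi1 held in 11 of 28 settings and was lost on leaving out any 1 of sham replicates 2, 3, 4, 5, 6 and 7 and of the db/db+Aldo hearts 1, 2, 3, 7 and 8. Under diet and L-NAME, Pfkl, the liver-type phosphofructokinase, rose from 1985 ± 56.9 to 2592 ± 40.8 (0.39 ± 0.05, adjusted p = 0.00250 in limma), the 1 call among 16, where 2.18% of all tested genes were called.

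Among 29 further HIF targets tested in db/db+Aldo, 7 rose and 7 fell (median −0.02), where 9.96% of all tested genes rose and 9.21% fell. Over the fits that leave out 1 library, 7 to 9 rose and 4 to 8 fell. Hmox1, heme oxygenase, rose by 0.87 ± 0.13 (adjusted p = 7.76e-05 in limma) and Ddit4, an inhibitor of mTORC1, by 1.11 ± 0.17 (adjusted p = 0.000192 in limma). P4ha1, a collagen prolyl hydroxylase, fell from 1100 ± 230 to 673 ± 97.2 (−0.70 ± 0.11, adjusted p = 0.000250 in limma). Car9, a carbonic anhydrase commonly read as a hypoxia marker, fell by 1.50 ± 0.30 (adjusted p = 0.00162 in limma) from a low level of 19.2 ± 4.23 to 6.91 ± 2.95, and Cxcl12, a chemokine, fell by 0.39 ± 0.09 (adjusted p = 0.00481 in limma). The fibroblast and macrophage marker levels given above moved in the same comparison, and their part in these counts was not tested.

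Under diet and L-NAME 2 of 28 further HIF targets rose and 0 fell (median 0.08, against a median close to 0 over all genes), where 1.18% of all tested genes rose and 1% fell. Angptl4, an inhibitor of lipoprotein lipase that also answers to fatty acids, rose from 117 ± 53.3 to 597 ± 316 normalised counts (2.28 ± 0.23, adjusted p = 0.000339 in limma). Angptl4 also rose in the db/db model, from 122 ± 76.0 to 798 ± 479 (2.56 ± 0.45, adjusted p = 0.000487 in limma).

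Steroid receptor targets were measured beside them because 1 model received aldosterone, and this list too was chosen with earlier results known. Of 16 tested in db/db+Aldo, 11 rose and 0 fell (median 0.68), beside 9.96% and 9.21% of all tested genes, led in p by Sgk1, a kinase that regulates sodium transport (0.94 ± 0.11, adjusted p = 6.97e-06 in limma), Fkbp5, a steroid receptor co-chaperone (1.04 ± 0.15, adjusted p = 5.46e-05 in limma), and Dusp1, a MAP kinase phosphatase (0.74 ± 0.11, adjusted p = 9.07e-05 in limma). Against chow 0 of 17 passed in limma and in limma voom (median −0.04), and Klf15, a metabolic transcription factor, had the lowest p (−0.51 ± 0.12, adjusted p = 0.0547 in limma, 0.0261 to 0.166 over 20 settings, of which it passed in 6). Hif3a, at 1.79 in the db/db model, was chosen with this comparison known, so it is not ranked against these lists. Any relation of it to the steroid receptor targets was not tested, and genotype and aldosterone cannot be told apart in that model.

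**Figure D5:**
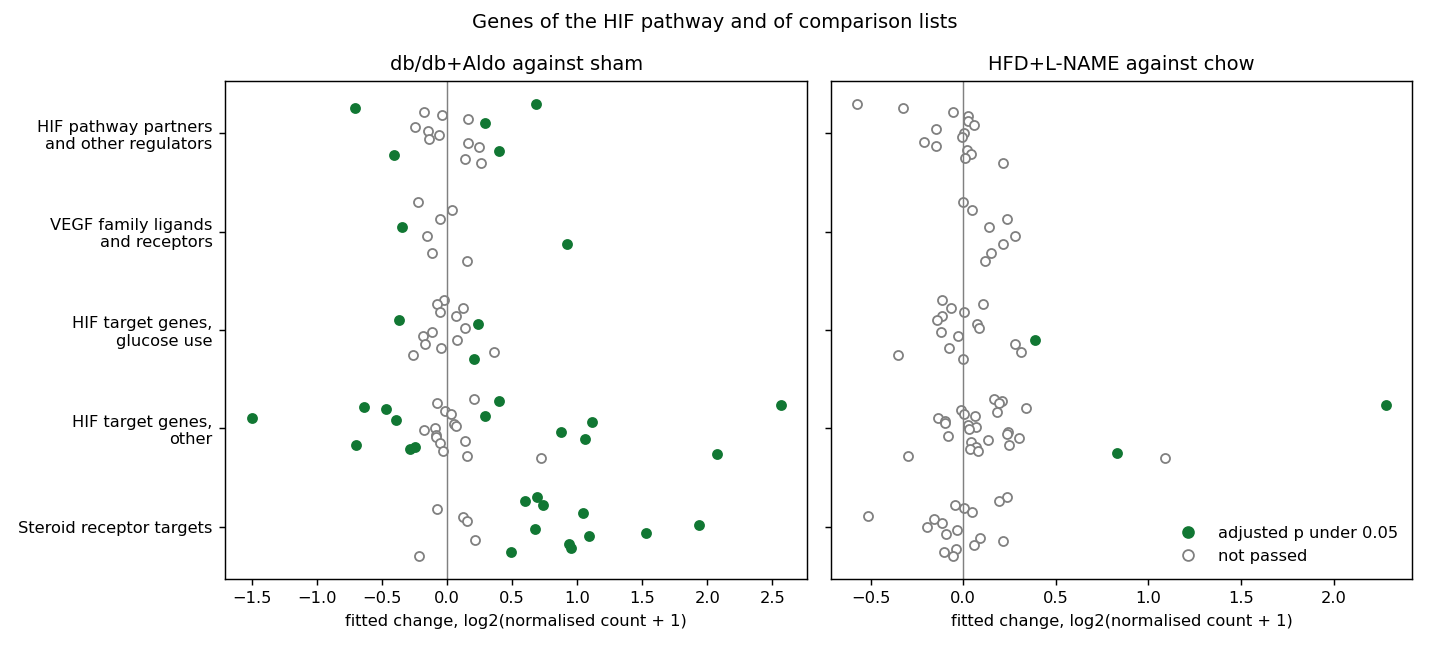
Fitted change of every tested gene of 5 lists on the log2(normalised count + 1) scale, with db/db+Aldo against sham in the left panel and HFD+L-NAME against chow in the right one. Filled points passed an adjusted p of 0.05. The HIF target lists spread to both sides of 0 in db/db+Aldo, with 7 rising and 7 falling in the larger list, while steroid receptor targets rise in 11 of 16 and fall in 0.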

How the data were processed

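Poly(A) RNA of 23 whole hearts was sequenced, per the labels' protocols, and the submitters' processing notes list, with no role, the tools limma, DESeq2 and featureCounts and mouse builds mm10 and GRCm38. The authors deposited a batch-corrected table whose values are a score here, since each proved to be a whole read number less an offset set for that gene in that run (tolerance 0.001). The authors' comparison tables hold a mean signal (counts divided by size factors), a log2 fold change with its SE and p-values, per the file headers. Read counts were recovered from both, in the db/db run for 99.98% of 52392 genes and in the other run for 100%, with the rest taken from the opposite offset. No library column was left unmatched. This replaced the normalised values that had been assumed.

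Counts divided by the authors' size factors were tested with limma 3.58.1 (R 4.3.3) as log2(value + 1) where the mean was at least 10, with trended variance and sex in the design, and p was adjusted over all genes of a model by Benjamini-Hochberg (threshold 0.05). Sex contrasts used means of group and sex. Python 3.11.15 (pandas 2.3.3, scipy 1.17.1) did the rest, and the fits were tested on simulated counts. Positions and exon lengths came from GENCODE M21 on GRCm38.

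The 10 genes, the lists and the tests were chosen with earlier results of these data known. From each list the 3 genes of smallest p per direction were named, or, with none, the gene of smallest p, and Angptl4 under both models, and 1 gene that this rule names is not reported here. The 5 genes most like Hif3a were ranked by Pearson r among those with a mean of at least 50. The chi-square of 2 replicates, averaged over genes, was never under 6.99, so each was counted as its own sample. The labels do not say that samples are separate animals, so the spread behind each p may be technical. Settings also tried were a pseudocount of 0.5 or 5, a mean of 50 or no minimum, total-count scaling, no size factors, quantile normalization, limma voom, no sex covariate, a replicate block, name series as covariate, 5 libraries left out and each library left out.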

Additional observations from a re-analysis of the deposited data

Results flagged for a closer look

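In 3 of 40 groups of values, 1 library stood apart from the rest of its group by Dixon's criterion, which chance gives in about 1 in 20 groups. Hif1a was at 1543 normalised counts in sham replicate 6, above the other sham hearts. Egln1 was at 9274 in db/db+Aldo replicate 7, the highest of its group. Vegfb was at 7385 in db/db+Aldo replicate 5, a male heart that was also the lowest of its group for Hif1a, Epas1, Arnt and Vegfa and the highest for Egln2.

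Hif3a pointed in opposite directions in the 2 models, with a fitted difference of 1.79 in the db/db model, where all 8 treated hearts lay above sham, and −1.09 in the diet model, where all 4 lay below chow. The difference between the models was not tested, since each was sequenced in its own run with its own controls.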

How the results depend on the processing

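The number of genes called in db/db+Aldo against sham was 2707, and 5327 with total-count scaling (556 higher and 4771 lower) and 5525 without size factors (421 higher and 5104 lower), where the median over all genes moved to −0.22 and −0.27. Relative to that median, Hif3a (1.81), Hif1a (0.45) and Vegfa (−0.36) changed by less than 0.01 with either scaling. HFD+L-NAME against chow gave 301 genes, and 186 without the sex covariate. Sex calls in HFD+L-NAME were 35, and 7 without the filter and 53 with total-count scaling. Those in chow were 15, and 8 without the filter. The sex by treatment term gave 1 gene in the db/db model without the filter, and in the diet model 0 without the filter and with limma voom. Leaving out each library in turn gave 5 to 16 genes for sex in sham, 149 to 307 for HFD+L-NAME against chow, 13 to 195 for sex in HFD+L-NAME, 6 to 37 for sex in chow and 0 to 47 for the sex by treatment term of the diet model. The changes of Tpi1 (−0.0458) and Ldha (−0.0126) were below 0 without size factors, through the shift of the median of all genes, and relative to it they stayed at 0.22 and 0.25. The cause of the other differences was not tested. Same-numbered libraries of the db/db model showed no sign of pairing (r −0.22 to 0.11, 7 pairs, 0 of them best with their own number). In the diet model they correlated at 0.09 to 0.38 (4 pairs, 2 of them best with their own number). With 4 pairs, and with sex left in the values, that check cannot tell whether the numbers pair the samples. The fit with the replicate block called 1849 genes in the db/db model and 206 in the diet model, Siah2 and Nrp1 not among the former. Hif3a, at 12 to 123 reads per library, is the gene for which depth limits precision most.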
